A study of Homo sapiens with 6 samples.

Results

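Gene expression was compared between hTert-HME1 cells labelled BRCA2 siRNA that were grown without EGF and cells with the same siRNA label that were grown with EGF. The 3 libraries of this comparison, out of 6 analysed here, were chosen by siRNA label. They are 2 libraries without EGF at passage 6, called A and B as in their labels, and 1 library with EGF at passage 4. hTert-HME1 is an established line of normal human breast epithelium kept growing by telomerase. Every culture had been transfected with an siRNA by a lipid reagent and left to recover before growth in the stated medium (MEGM), complete or lacking EGF, and 1 control siRNA and 1 BRCA2 siRNA were used. The other 3 libraries came from cells given the control siRNA and grown with EGF, at passage 4 (P4) and at passage 6 (A and B). They served here to measure spread and to show the level of each gene in EGF. Of 57820 gene rows, 14820 averaged at least 10 over the 3 libraries compared, on the scale of 2 raised to the log2 value, and were tested. Medium and passage differ together between the libraries compared and cannot be told apart there, and the side with EGF holds 1 library, so its own replicate spread is not known. Nothing in the labels ties the replicate letters to separate starting cultures, so p-values refer to spread between libraries that may be technical. That spread comes from A and B without EGF and from the 3 controls, since the library with EGF has no replicate. The controls were fitted as 1 group that spans both passages, so their passage difference is part of the spread.

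EGF binds the receptor EGFR on breast epithelial cells and sets off the RAS, RAF, MEK and ERK kinases as well as PI3 kinase and AKT. ERK activity switches on immediate early genes such as FOS and also genes that damp the pathway, among them DUSP phosphatases and Sprouty proteins. AKT activity keeps FOXO transcription factors out of the nucleus. Breast epithelial and skin keratinocyte cultures are usually grown with EGF, which favours migration and proliferation over firm attachment and differentiation.

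The libraries were compared with each other before the groups were. The SD of the difference between libraries over the 14820 genes was 0.31 between A and B without EGF, and 0.48 (A) and 0.52 (B) between these and the library with EGF. Among the controls it was 0.12 between A and B and 0.48 to 0.51 between P4 and either of them. The library labelled BRCA2 siRNA with EGF, of passage 4, was closer to controls A (0.29) and B (0.32) of passage 6 than to control P4 (0.40). In it 28 genes (0.189% of those tested) were at least 1 log2 unit above every control, and 0 were as far below. BRCA2 itself, the target of the siRNA, was at 11.15 (A) and 10.89 (B) without EGF, 10.88 with EGF and 10.19 (P4), 11.25 (A) and 11.24 (B) in the controls. The library labelled BRCA2 siRNA with EGF thus held no less BRCA2 than the control of the same passage, though less than controls A and B. The passage 4 comparison therefore does not bear out the siRNA label. Controls A and B were also above control P4 over the DNA replication and homologous recombination lists (medians 1.13 and 0.82), and the second holds BRCA2. Whether this accounts for the low BRCA2 of control P4 was not tested. Whether the labels of the 2 passage 4 libraries, both grown with EGF, were exchanged could not be settled. What is called the library with EGF here, and control P4 in every passage difference, therefore rest on those labels. In BRCA2 the libraries without EGF differed from the library with EGF by 0.14 ± 0.47 (standard error, limma adjusted p = 0.902). The sign turned once the passage difference of the controls was taken off. The libraries without EGF also lay only a little below controls A and B of the same passage, so no library with the BRCA2 siRNA label held clearly less BRCA2. Basal mammary keratins marked the cells in every library: KRT5 ran from 16.81 to 17.86 and KRT14 from 16.56 to 17.62. The blood cell list had 0 of 10 members past the filter.

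The libraries without EGF held more IGFBP3 and IGFBP5, which bind insulin-like growth factors, more E-cadherin and more of the desmosomal cadherins DSG1 and DSC1. They held less of the chemokine CXCL8 and the collagenase MMP1. In the limma fit 26 genes rose without EGF (0.175% of the tested genes) and 5 fell (0.0337%) at an adjusted p below 0.05. All 31 lay outside the range of all 4 libraries with EGF, so their direction is the same against either passage 4 library, and each changed by at least 1.58 on the log2 scale. Of these genes, 9 had a mean of 2 raised to the value below 50, and 2 had no symbol in the naming table. Over all tested genes 329 were at least 1 log2 unit higher and 240 at least 1 lower. In simulated data this fit found 0.5% of genes changed by 1 log2 unit, so a gene that does not pass may still differ. Of all 14820 tested genes 7145 were above 0 and 7675 below, the background for list members above and below 0. At an unadjusted limma p below 0.05 there were 1321 higher and 1135 lower genes, the background for list counts at that threshold. The counts depended on single libraries: 0 genes passed limma without library A (1011 higher and 871 lower at an unadjusted p below 0.05) or without library B (766 and 495) of the group without EGF. There were 7 higher and 2 lower without control A, 12 and 2 without control B, and 1106 and 1308 without control P4. With each class of siRNA, medium and passage as its own group, 1103 rose and 1315 fell, among them all 31.

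**Figure D1:**
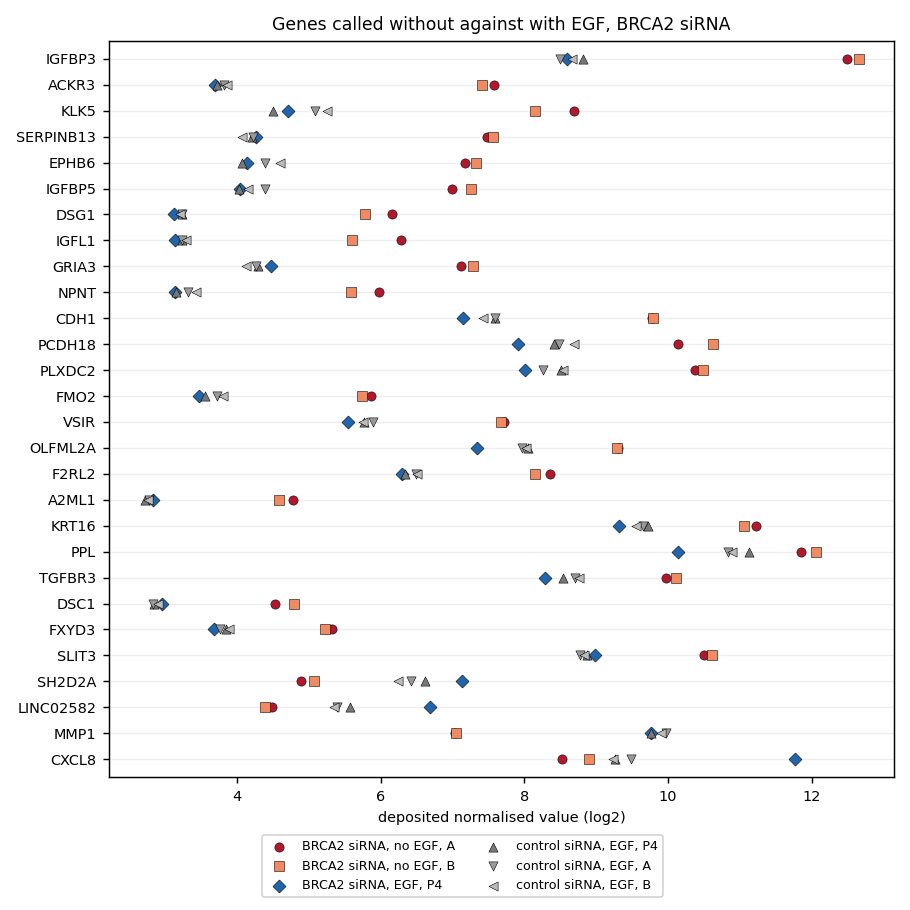
Deposited normalised log2 values (horizontal axis) of 28 called genes with a symbol in the 6 libraries, ordered by the difference between the libraries without EGF and the library with EGF. Circles and squares are the libraries without EGF, the diamond is the library with EGF and the grey triangles are the 3 controls; IGFBP3, for instance, lies at 12.49 and 12.65 without EGF and between 8.50 and 8.81 in the other 4 libraries.

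The largest rise was that of IGFBP3, a secreted protein that binds insulin-like growth factors and can keep them from their receptor. It was at 12.49 (A) and 12.65 (B) without EGF, 8.59 with EGF and 8.50 to 8.81 in the controls. Both libraries without EGF were far above the other 4, a 15.8-fold difference (3.98 ± 0.19 on the log2 scale, adjusted p = 0.00827). IGFBP5, another member of the family, was at 6.99 and 7.25 without EGF, 4.04 with EGF and 4.03 to 4.39 in the controls. It rose 8.45-fold (3.08 ± 0.24, adjusted p = 0.0255). IGFBP2 had values of 10.20 and 9.78 without EGF, 7.39 with EGF and 7.11, 8.36 and 8.48 in controls P4, A and B. Its difference of 2.60 did not pass (adjusted p = 0.17), and the controls themselves differed by 1.31 between passages. Of 13 tested genes of the insulin-like growth factor axis 9 were above 0, with a median difference of 0.51. The median over all tested genes was -0.02. IGFBP6 (0.55) and IGFBP7 (0.77) did not pass, IGFBP4 (-0.58) lay lower, and the receptors IGF1R (0.51) and INSR (0.19) and the adaptor IRS1 (0.49) differed less than IGFBP3.

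ACKR3, an atypical chemokine receptor that takes up CXCL12 without the usual G protein signal, was low in all 4 libraries with EGF. It stood at 7.58 and 7.41 without EGF, 3.70 with EGF and 3.73 to 3.86 in the controls. The groups were far apart, and ACKR3 rose 13.9-fold (3.80 ± 0.19, adjusted p = 0.00827). Among receptors of other growth factors, TGFBR3, the TGF-beta co-receptor betaglycan, rose by 1.75 (9.98 and 10.10 without EGF, 8.29 with EGF, 8.53 to 8.76 in the controls, adjusted p = 0.0484). FGFR2, an FGF receptor of epithelium, was at 8.37 and 7.99 without EGF, 6.17 with EGF and 6.62 to 6.77 in the controls. It did not overlap between media but had an adjusted p of 0.0509. FGFR3 had 9.72 and 8.84 against 7.59 with EGF, and 6.61 to 7.70 in the controls (adjusted p = 0.241). In the list of other growth factor receptors and ligands 14 of 18 members were above 0 (median 0.64).

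Members of the EGFR family and its ligands lay on both sides of 0. The receptor EGFR was at 15.67 and 16.25 without EGF and 15.15 with EGF, but controls with EGF reached 15.82, so that media overlapped (difference 0.81, adjusted p = 0.298). ERBB2 (0.59) and ERBB3 (0.77) also lay higher. The ligands TGFA (-0.93), HBEGF (-0.70) and EREG (-0.66), which bind EGFR, lay lower, and AREG (-0.27) and EPGN (-0.21) differed less. So did ERRFI1 (-0.79), which binds and inhibits the receptor. NRG1, a ligand of ERBB3 and ERBB4, went the other way, with 11.67 and 12.73 against 10.93, and of the other neuregulins NRG2 had -0.70 and NRG4 0.65. None of the 16 tested members passed limma, 8 being above and 8 below 0 with a median of 0.24. At an unadjusted limma p below 0.05 there were 6 higher and 2 lower, against 1321 and 1135 of all 14820 tested genes.

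Genes that ERK activity switches on lay lower without EGF. Of 24 tested members of the ERK feedback list, 20 were below 0 and the median was -0.81. For 20 members both libraries without EGF were below the library with EGF, against 41.6% of all tested genes, and for 17 they were below all 4 libraries with EGF, against 22.0%. None passed limma singly (14 lower and 1 higher at an unadjusted p below 0.05). DUSP6, a phosphatase that acts on ERK, was at 11.06 and 10.59 without EGF, 12.38 with EGF and 11.78 to 12.40 in the controls. SPRY4, an inhibitor upstream of RAF, was at 8.71 and 8.16, 9.99, and 9.30 to 10.11 in the same order. Both were lower in either library without EGF than in any with EGF, with adjusted p of 0.151 and 0.202. CCND1, the cyclin that links growth factors to the cell cycle, was at 11.17 and 10.44 without EGF, 12.29 with EGF and 11.75 to 12.39 in the controls. The ETS factors ETV5 (-1.27), ETV4 (-1.25) and ETV1 (-1.19), PHLDA2 (-1.44) and DUSP4 (-1.36) shared the direction. MYC differed by -0.17 and EPHA2 by 0.13. After the passage difference of the controls was taken off, the median was -0.76 and DUSP4 had -0.23. DUSP6, SPRY4, PHLDA2, ETV5 and ETV1 were among 6 of the 24 members that passed there as lower, against 1.69% of all tested genes.

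**Figure D2:**
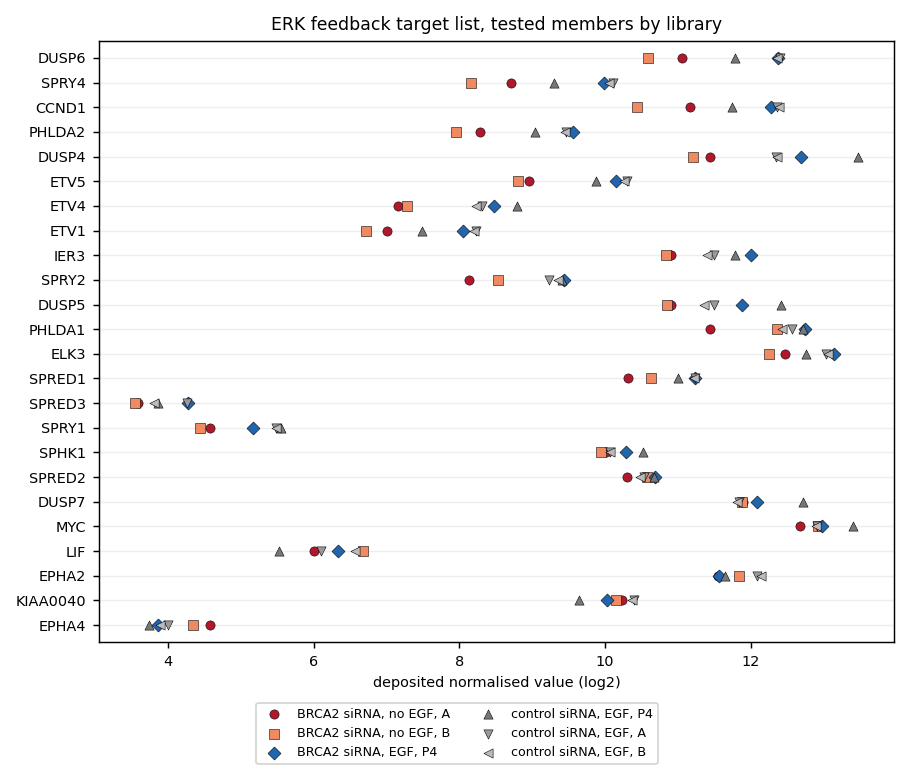
Normalised log2 values (horizontal axis) of the 24 tested members of the ERK feedback list in each library, ordered by difference. In the upper lines, from DUSP6 to SPRY1, both symbols of the libraries without EGF lie to the left of the 4 libraries with EGF; MYC, LIF and EPHA2 show no such order.

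Immediate early genes were less uniform. FOS, a subunit of the transcription factor AP-1, was at 8.30 and 7.62 without EGF, 9.78 with EGF and 8.99 to 9.52 in the controls. FOSL1, the FOS relative known to depend on lasting ERK activity, was at 10.55 and 10.19, 11.74, and 11.52 to 11.76. Both were lower in each library without EGF than in any with EGF, at adjusted p of 0.127 and 0.0827. JUN (0.04) and EGR1 (-0.59) differed less, and KLF4 (1.18), a factor of epithelial differentiation, lay higher. Of 20 members 13 were below 0, with a median of -0.35, and none passed limma (2 higher and 4 lower at an unadjusted p below 0.05). With the control passage difference taken off the median was 0.15, so the direction of the list turns there. Of the FOXO factors and their targets, the sestrin SESN3 (1.18, adjusted p = 0.0692) and FOXO1 itself (1.22) lay higher and TRIB1 (-0.71) lower. The list of 17 had a median of 0.06, and none passed limma (4 higher and 0 lower at an unadjusted p below 0.05).

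Cell junction genes lay higher without EGF. CDH1, the E-cadherin of adherens junctions, was at 9.78 and 9.79 without EGF, 7.14 with EGF and 7.42 to 7.60 in the controls. It rose 6.24-fold (2.64 ± 0.17, adjusted p = 0.0172), with A and B level. DSG1, a desmosomal cadherin of differentiating epithelium, went from 3.13 with EGF (3.21 to 3.23 in the controls) to 6.15 and 5.78 (adjusted p = 0.0229). DSC1, its desmocollin counterpart, and PPL, the periplakin that ties desmosomes to keratin filaments, rose as well, by 1.70 and 1.82. PPL was at 11.86 and 12.05 without EGF, and the library with EGF (10.14) was below the controls (10.83 to 11.13). In the list of adherens junction and desmosome genes 15 of 16 were above 0, with a median of 0.94, and 2 passed (CDH1 and DSG1). Both libraries without EGF were above the library with EGF for 14 members, against 38.0% of all tested genes, and above all 4 libraries with EGF for 12, against 17.0%. The desmosomal genes DSC3 (1.43), DSP (1.35) and PERP (1.28) and the P-cadherin CDH3 (1.40) came next, while the cytoplasmic catenins CTNNA1 (-0.24), CTNNB1 (0.01) and CTNND1 (0.19) hardly differed. With the control passage difference taken off the median was 0.93 and 7 members passed as higher, against 2.22% of all tested genes. Among tight junction genes 8 of 12 were above 0 (median 0.78) and none passed limma (7 higher at an unadjusted p below 0.05). CLDN1, the claudin with the largest difference (2.05), was much lower in A (10.50) than in B (12.05).

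Genes of attachment to the basement membrane were higher by smaller steps. Of 21 hemidesmosome and basement membrane genes 20 were above 0 and the median was 0.68. Both libraries without EGF were above the library with EGF in these 20, against 38.0% of all tested genes, and above all 4 libraries with EGF in 14, against 17.0%. COL7A1, the collagen of anchoring fibrils, was at 13.94 and 13.90 without EGF and 12.72 with EGF, against 12.58 to 13.05 in the controls. None of the 21 passed limma (13 higher at an unadjusted p below 0.05). NPNT, which encodes the integrin ligand nephronectin and belongs to no list, rose by 2.65 from a low 3.13 (adjusted p = 0.0313). Among integrins, ITGB6, the partner of ITGAV in a receptor that activates TGF-beta, was at 8.75 and 8.45 without EGF, 6.45 with EGF and 6.28 to 6.86 in the controls (adjusted p = 0.0662). ITGB8 (1.37) and ITGAV (0.83) followed, and ITGA2 (-0.68) lay lower.

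In the basal mammary list 16 of 20 members were above 0 (median 0.80). KRT16, a keratin of activated epidermis, was at 11.22 and 11.06 without EGF, 9.32 with EGF and 9.56 to 9.71 in the controls, and it rose 3.53-fold (adjusted p = 0.0313). TRIM29, found in basal and squamous epithelium, was at 9.03 and 9.13, 6.62, and 6.14 to 6.69. It stood 5.49-fold higher with an adjusted p of 0.0509. KRT5 (0.91) and KRT14 (0.92) lay higher, and VIM (-0.68) and SNAI2 (-0.71) lower. The mesenchymal list of 19 was mixed, with 10 above 0 (median 0.26), SPARC at 0.78 and POSTN at 1.49, and none passed limma. At an unadjusted limma p below 0.05 it had 3 higher and 2 lower, against 1321 and 1135 of all 14820 tested genes. KRT17 (1.21) was at 13.69 and 13.70 without EGF and 12.48 with EGF, but control P4 (13.47) came close to the libraries without EGF. Luminal genes had a median of -0.16 over 10 members, with KRT18 at -0.50.

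Genes of squamous differentiation gave 3 of the 26 rises. KLK5, a kallikrein protease of the skin barrier, was at 8.69 and 8.15 without EGF, 4.71 with EGF and 4.50 to 5.26 in the controls. It rose 13.1-fold (3.71 ± 0.39, adjusted p = 0.0493) and its controls differed by 0.68 between passages, the most among the called genes. SERPINB13, a keratinocyte inhibitor of cysteine proteases, was at 7.47 and 7.56 against 4.26 with EGF and 4.07 to 4.22 in the controls (9.56-fold, adjusted p = 0.0134). DSG1, given above, was the third. A2ML1, a protease inhibitor of the upper epidermis, rose by 1.85 at a low level. GRHL3, a transcription factor of the epidermal barrier, was at 7.51 and 8.02 against 5.69 (adjusted p = 0.0683). Other members lay on both sides. SPRR1B (1.32) and TGM1 (1.22), of the cornified envelope, lay higher, FLG differed by 0.47 and KRT10 by 0.06, and SERPINB3 (-1.68) lay lower. SERPINB3 was low, at 3.27 and 2.85 without EGF, and there overlapped the controls (2.66 to 3.11). IVL was at 6.97 and 5.69 against 7.09. Over the 18 tested members 13 were above 0 and the median was 0.29. In 10 both libraries without EGF were above all 4 libraries with EGF, against 17.0% of all tested genes.

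**Figure D3:**
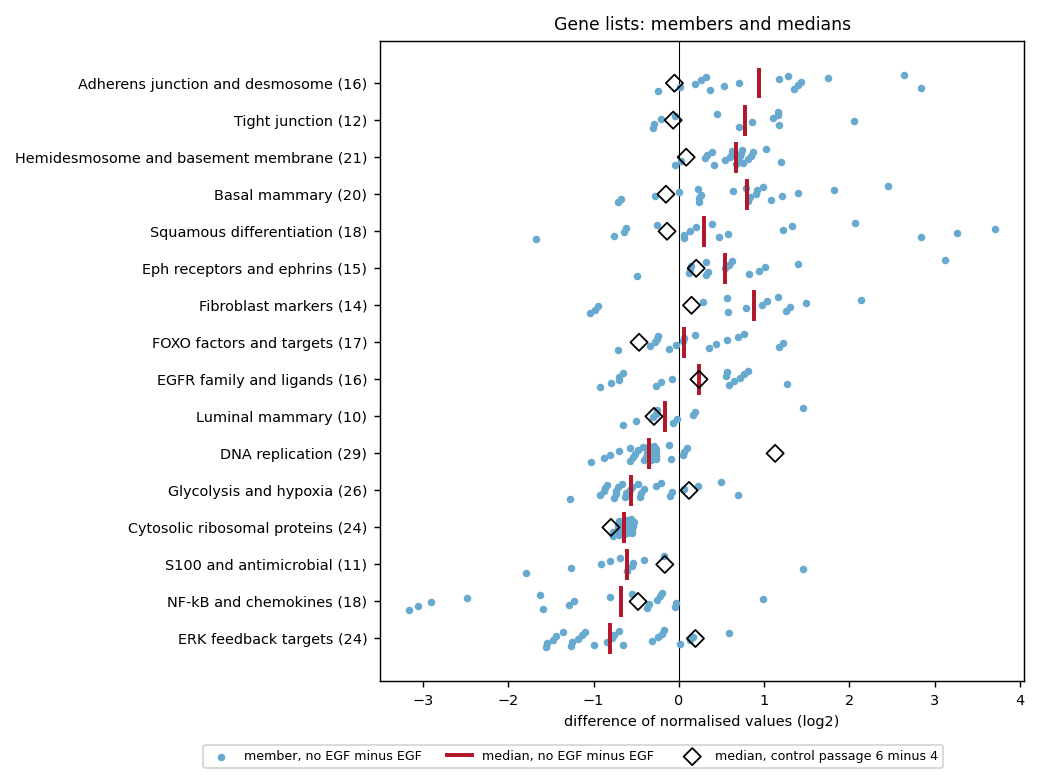
Differences in log2 value (horizontal axis) between the libraries without EGF and the library with EGF for each tested member of 16 gene lists (dots, number tested in brackets), with the list median (red bar). Open diamonds give the median of the passage 6 minus passage 4 difference in the controls; it is near 0 for junction and squamous genes, close to the red bar for ribosomal protein genes (-0.80 beside -0.64) and on the other side of 0 for DNA replication genes (1.13 beside -0.36).

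Several further genes rose, most of them membrane proteins. EPHB6, an Eph receptor that lacks kinase activity, was at 7.18 and 7.32 without EGF, 4.13 with EGF and 4.07 to 4.60 in the controls (8.67-fold, adjusted p = 0.0303). Of 15 Eph receptors and ephrins 14 were above 0 (median 0.54), and EPHB6 alone passed. GRIA3, a glutamate receptor subunit, rose by 2.72. PCDH18, a protocadherin, rose by 2.46, PLXDC2 by 2.42 and VSIR, an immune checkpoint ligand, by 2.15. OLFML2A rose by 1.96, F2RL2, a thrombin receptor subunit, by 1.95, SLIT3, a guidance ligand, by 1.58, and FXYD3, a regulator of the sodium pump, by 1.60. IGFL1, a secreted insulin-like growth factor homologue, rose by 2.81 and differed by 0.68 between A and B, the most among the called genes. FMO2, a flavin monooxygenase, rose by 2.33, and a gene without a symbol, ENSG00000143140, by 2.28.

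MMP1, the interstitial collagenase and a classical AP-1 target, fell without EGF. It was at 7.03 and 7.05 without EGF, 9.76 with EGF and 9.76 to 9.97 in the controls. The 4 libraries with EGF lay close together, and the fall was 6.58-fold (-2.72 ± 0.17, adjusted p = 0.0154). The stromelysins MMP10 (-1.49, adjusted p = 0.0646) and MMP3 (-0.58) lay lower at low values, as did the collagenase MMP13 (3.18 and 3.23 against 4.20). The urokinase receptor PLAUR (-1.01) and the plasminogen activator PLAT (-0.99) lay lower, and the inhibitor TIMP3 (2.45, adjusted p = 0.0552) and the aggrecanase ADAMTS5 (1.02) higher. Over the 19 members the median was -0.07, with 9 above and 10 below 0. SH2D2A, an adaptor of tyrosine kinase signalling, fell by 2.15, from 7.14 with EGF and 6.24 to 6.62 in the controls to 4.89 and 5.07. The non-coding genes LINC02582 and ENSG00000269927 fell by 2.25 and 1.95.

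CXCL8, a chemokine that draws neutrophils, also fell, and here the library with EGF matters more. It was at 8.52 and 8.90 without EGF, 11.77 with EGF and 9.23 to 9.48 in the controls, a fall of 8.32-fold (-3.06 ± 0.22, adjusted p = 0.0229). The libraries without EGF were the lowest of all 6, but they lay within 1 log2 unit of the controls, and the library with EGF was 2.45 above the control mean. CXCL1 and CXCL3, which act through the same receptor as CXCL8, were likewise highest in the library with EGF. CXCL1 was at 10.48 and 10.57 without EGF, 13.69 with EGF and 10.34, 11.44 and 11.18 in controls P4, A and B. CXCL3 was at 7.61 and 8.53, 10.97, and 8.27, 8.55 and 8.25. For both the controls overlapped the libraries without EGF, and the differences of -3.16 and -2.90 did not pass (adjusted p = 0.0662 and 0.0654). CXCL1 and CXCL3 are close copies of each other, and it is not known here how reads that fit both were counted.

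The 3 chemokine genes lie in 1 cluster on chromosome 4, and their promoters are shown because the genes differed together. Each run covers 250 bases before to 50 after the start of the gene, from RefSeq, build GRCh38.p14, read in the direction of the gene. Capitals mark 2 motifs that were searched on both strands: GGAATTTCC, a form of the NF-kB site, and TGACTCA, a form of the AP-1 site, which do not overlap here. The first occurs in 0.461% of 35116 promoters of the same length and the second in 4.95%.
CXCL8, chr4:73740319-73740618, plus strand: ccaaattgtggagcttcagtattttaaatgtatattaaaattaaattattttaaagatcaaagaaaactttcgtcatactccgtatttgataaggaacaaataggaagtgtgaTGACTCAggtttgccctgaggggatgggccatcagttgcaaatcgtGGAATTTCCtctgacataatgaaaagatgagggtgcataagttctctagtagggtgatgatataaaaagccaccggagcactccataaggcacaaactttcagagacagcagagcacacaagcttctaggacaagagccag
CXCL1, chr4:73869143-73869442, plus strand: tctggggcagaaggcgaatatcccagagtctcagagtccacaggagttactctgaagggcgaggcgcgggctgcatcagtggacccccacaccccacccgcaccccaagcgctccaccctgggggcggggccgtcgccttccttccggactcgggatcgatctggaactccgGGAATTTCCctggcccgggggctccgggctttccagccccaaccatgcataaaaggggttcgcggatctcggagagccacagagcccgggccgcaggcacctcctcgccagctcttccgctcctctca
CXCL3, chr4:74038640-74038939, minus strand: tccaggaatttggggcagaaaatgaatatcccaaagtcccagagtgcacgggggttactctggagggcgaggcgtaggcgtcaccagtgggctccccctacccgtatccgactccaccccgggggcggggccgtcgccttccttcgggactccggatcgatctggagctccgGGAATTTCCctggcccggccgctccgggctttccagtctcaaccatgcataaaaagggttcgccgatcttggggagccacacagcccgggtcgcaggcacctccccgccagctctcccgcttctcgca
All 3 hold GGAATTTCC on the strand of the gene, from 91 to 83 bases before the start in CXCL8 and from 78 to 70 before it in CXCL1 and CXCL3. CXCL8 also holds TGACTCA, from 137 to 131 bases before the start. A match describes letters in this window and shows no binding. The 2 motifs were set by hand and the runs of CXCL1 and CXCL3 are much alike, so the shares give no test of the motifs.

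The wider NF-kB and chemokine list was below 0 in 17 of 18 tested members, with a median of -0.68, and CXCL8 alone passed. For 10 of them both libraries without EGF were below the library with EGF, against 41.6% of all tested genes. For 3 they were below all 4 libraries with EGF, a share near the 22.0% of all tested genes. The haematopoietic growth factors CSF3 (-2.48) and CSF2 (-1.59) and the cytokine IL1B (-1.63) followed the chemokines. CSF3 was at 8.74 and 8.06 without EGF, 10.88 with EGF and 8.89, 10.04 and 10.01 in controls P4, A and B. Core pathway members differed little, NFKB1 by -0.04 and NFKB2 by -0.05, and library B exceeded library A in 15 of the 18. The median against the library with EGF was -1.10 for A and -0.26 for B. With the control passage difference taken off the median was 0.02. There 4 members passed as lower (among them CXCL1 at -4.13, CSF3 at -3.61 and CXCL8 at -3.16) and 1 as higher. Of all tested genes 1.69% passed there as lower and 2.22% as higher. The library with EGF had a median of 0.92 above the control mean over the list.

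**Figure D4:**
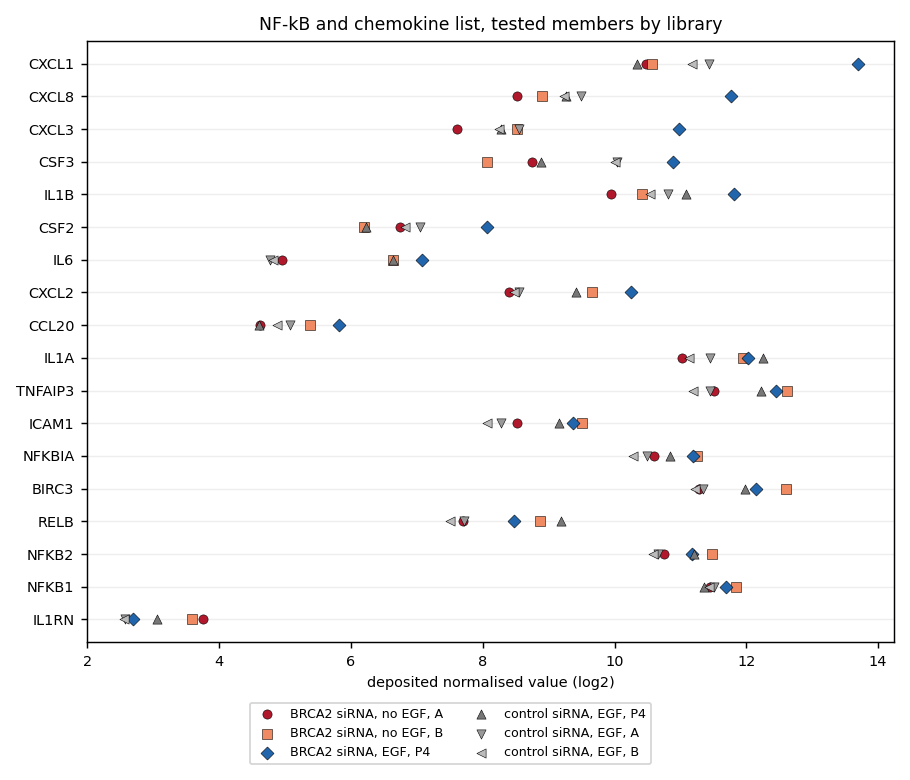
Normalised log2 values (horizontal axis) of the 18 tested members of the NF-kB and chemokine list in each library, ordered by difference. For CXCL1, CXCL8 and CXCL3 the library with EGF (diamond, 13.69, 11.77 and 10.97) is far to the right of all others, controls with EGF included; from TNFAIP3 downward library B without EGF lies at or beyond the diamond.

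Of the 28 genes in which the library with EGF exceeded every control by at least 1, 27 were lower in both libraries without EGF. In 20 they were lower by at least 1 in both. Of all tested genes 41.6% were lower in both. The 28 were picked for a high value in that 1 library, so lower values elsewhere are largely built into the choice. They include the calgranulins S100A9 (9.20 with EGF, 7.48 to 7.83 in the controls) and S100A8 (8.31 and 6.32 to 6.91), which differed by -1.79 and -1.26 without EGF. The proteoglycans DCN and LUM were also among them. STC1, a secreted glycoprotein, was at 8.13 with EGF, 5.15 and 4.76 without and 5.83 to 6.80 in the controls. DEPP1, a FOXO target in other cells, was at 8.42, 5.66 and 5.56, and 6.11 to 6.92. Both were lowest without EGF, at adjusted p of 0.0662 and 0.0626. C3, a complement protein, was at 13.14 and 13.47 without EGF, 13.57 with EGF and 11.97 to 12.41 in the controls, so that it lay below the library with EGF but above the controls. CASP14 was the single exception to the lower direction, at 5.77 with EGF and 6.18 and 5.42 without. Of 11 S100 and antimicrobial genes 10 were below 0 (median -0.60), and SLPI (1.46), a protease inhibitor, above.

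Most fibroblast markers lay higher without EGF, but none passed limma (8 higher and 3 lower at an unadjusted p below 0.05). Of 16 listed genes 14 passed the filter, COL1A2 and PDGFRA being below it and 0 at zero in all libraries. Their summed level, as 2 raised to the value, was 23764 (A) and 23408 (B) without EGF, 14631 with EGF and 11254 to 14468 in the controls. COL1A1 (1.30, adjusted p = 0.0646), MFAP5 (2.13) and FAP (1.25) lay higher and DCN (-1.04), LUM (-0.98) and COL6A3 (-0.95) lower. DCN and LUM were lower only than the library with EGF. Without EGF DCN was at 9.03 and 9.10, against 8.14 to 8.88 in the controls. LUM was at 7.57 and 8.10, against 6.77 to 7.28. Of the 14 tested, 11 were above 0 (median 0.88, or 0.42 with the control passage difference taken off). The list sum was thus higher in the same libraries in which CDH1, IGFBP3 and the basement membrane genes were higher. Its part in those results was not tested, and in bulk RNA more cells of a type and more RNA per cell cannot be told apart. Of 9 endothelial genes 2 passed the filter, KDR (9.14 and 9.54 without EGF, 8.46 with EGF, 8.04 to 10.07 in the controls) and TEK, and the defining cadherin CDH5 was zero in all 6 libraries. Of 7 adipocyte genes 2 passed, and ADIPOQ was zero in all 6. FABP4, a fatty acid binding protein that the adipocyte list also holds, was at 9.92 and 9.87 without EGF, 8.22 with EGF and 7.21 to 7.50 in the controls (adjusted p = 0.0509).

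Several growth and metabolism lists also differed between passages in the controls. Without EGF 26 of 29 DNA replication genes lay below 0 (median -0.36), but the controls differed by 1.13 in the other direction between passage 6 and passage 4. With that difference taken off the median was -1.51. For 0 members were both libraries without EGF below all 4 libraries with EGF, and none passed limma (0 at an unadjusted p below 0.05). CCNE2, for example, was at 7.79 and 6.30 without EGF, 7.92 with EGF and 6.06, 8.24 and 8.32 in controls P4, A and B. In cholesterol synthesis 19 of 24 genes were below 0 (median -0.22), beside a control difference of 0.95. Homologous recombination genes had 0.01, with 12 of 23 above 0, beside 0.82. All 24 ribosomal protein genes lay below 0, with a median of -0.64. For 23 of them both libraries without EGF were below all 4 libraries with EGF, against 22.0% of all tested genes. The controls differed by -0.80 in these genes between passages, and the median was 0.16 with that taken off. Mitosis genes had a median of -0.03. Glycolysis and hypoxia genes had -0.56 while the controls differed by 0.12, with BNIP3 at -1.28 and LDHA at -0.87. The chromatin protein HMGA1 was at 11.04 and 10.93 without EGF and 12.57 with EGF, against 12.56 to 12.96 in the controls (adjusted p = 0.0662). The amino acid transporter SLC7A5 was at 15.03 and 15.24 without EGF and 13.77 with EGF, against 14.21 to 14.53 in the controls (adjusted p = 0.0854). TNFSF10, the death ligand TRAIL, had 8.08 and 7.48 against 5.51 (adjusted p = 0.0652).

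Taking off the control passage difference gave a second estimate, in which the passage step of the control cells was subtracted, which supposes that passage has the same effect with either siRNA. By limma 329 genes were then higher (2.22% of those tested) and 250 lower (1.69%), among them all 31 genes called above. These counts fell to 0 and 0 without control A and to 1 and 1 without control B, the 2 closest libraries of the series. The largest higher values included IGFBP3 (4.21), FBXO32, a ubiquitin ligase and FOXO target (4.19), and ACKR3 (3.69). FBXO32 was at 8.18 and 8.36 without EGF, 7.81 with EGF and 10.57, 6.83 and 6.85 in controls P4, A and B, so its value comes from control P4 rather than from the libraries without EGF. RGS4, a regulator of G protein signalling, had -4.08, of which the controls gave 2.51 with the sign turned (5.45 in P4, 7.83 and 8.08 in A and B). GPNMB, a membrane glycoprotein, had 3.62, with a difference of 1.88 and a control step of -1.73. IGFBP3, ACKR3, SERPINB13 (3.32) and CXCL8 (-3.16) owed little to the control step, the controls differing by at most 0.23 between passages. The first fit counted that step as spread, which favours genes with a small one. That all 31 called genes passed here is thus partly built in.

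**Figure D5:**
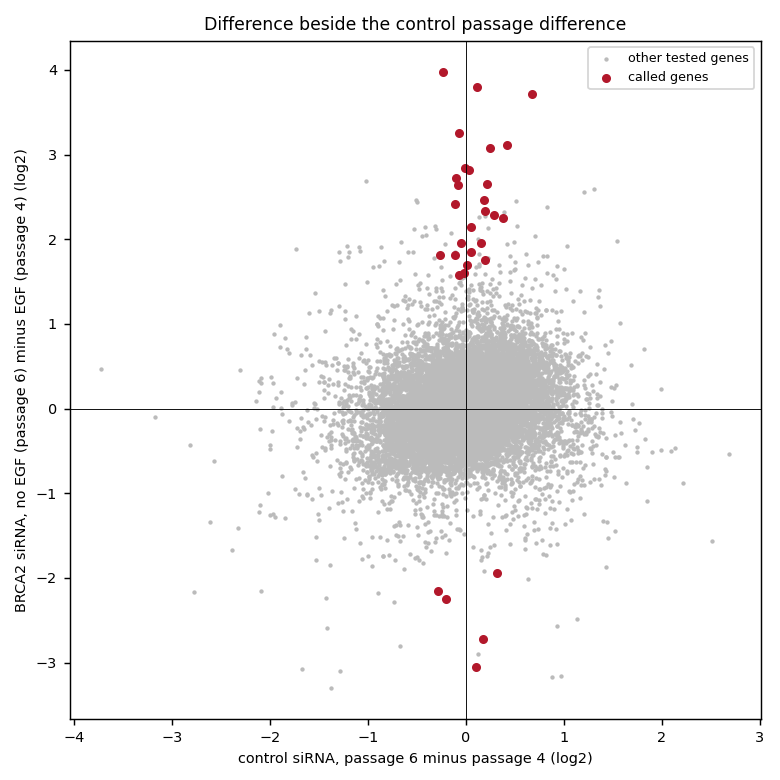
Difference between the libraries without EGF and the library with EGF (vertical axis, log2) against the passage 6 minus passage 4 difference in the controls (horizontal axis, log2) for the 14820 tested genes. The 31 called genes (red) lie within 0.68 of 0 on the horizontal axis. The fit that called them counts the control difference as spread, so a large one hinders a call. Grey genes far to either side, such as FBXO32 at -3.72, are those that changed between passages in the controls.

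The 2 libraries without EGF differed from each other in stress and growth genes. In 97 genes B was higher than A by at least 1 and in 32 genes A was higher. The genes furthest up in B were targets of the amino acid and unfolded protein response: INHBE (4.78 in A and 7.36 in B), ADM2 (4.53 and 6.67), STC2 (5.39 and 7.48), ATF3 (8.39 and 10.44) and CHAC1 (6.75 and 8.62). Those furthest up in A were FAM111B (11.13 and 9.38), the heat shock genes HSPA1A (11.78 and 10.10), HSPA1B (11.96 and 10.33) and HSPA8 (15.75 and 14.15), and FGFBP1 (13.22 and 11.58). HSPA1A and HSPA1B are near-identical copies whose reads may be split. In all 10 control P4 differed from controls A and B in the direction in which library B differed from A, as in ATF3 (10.05 in P4, 8.46 and 8.36 in A and B) and FAM111B (8.59, 11.20 and 11.35). The median of the amino acid and unfolded protein list against the library with EGF was -0.08 for A and 0.61 for B. No gene of this kind was among the 31 called, in which A and B differed by at most 0.68. The difference between A and B also counts as spread in the fit, so a large one hinders a call.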

How the data were processed

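Polyadenylated RNA of 6 hTert-HME1 cultures was sequenced after ScriptSeq library preparation, per the labels' protocols. The authors deposited 1 table of normalised log2 values, which has 1 column for each library and 57820 rows named by Ensembl gene. The submitters' processing notes name TopHat2 2.0.11, DESeq2 and hg19. Not given in the sources used here are the read counter, the annotation, the use of strand and the log transformation. Values below 0 occur and 0 rows are 0 in some libraries only, so low genes may have been shrunk and their differences understated. Depth per library is unknown, so no counting interval is given and no count model was fitted.

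Groups came from the labels. The log2 values went into limma 3.58.1 in R 4.3.3 (lmFit, eBayes with trend and robust prior, two-sided) with 3 groups over all 6 libraries and 3 residual degrees of freedom. The library with EGF takes its spread from the other groups. Benjamini-Hochberg adjustment ran over the 14820 tested genes, with 0.05 as the threshold. A second fit had 4 classes of siRNA, medium and passage (2 residual degrees of freedom) and subtracted the control difference between passages. The procedure was tested on simulated data in which 200 of 14820 genes were changed, with the fitted spread. The first fit recovered 0.5% of genes changed by 1 log2 unit, 95% at 2 units and 97.5% at 3, with 0, 8 and 11 false calls. For the second fit these were 38%, 97% and 100%, with 10, 19 and 22 false calls. A gene that differs by about 1 would thus seldom pass the first fit. Fold changes are 2 raised to the difference.

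The comparison, its members and 44 gene lists (771 genes) were chosen with earlier results of these data known. No list was tested as a set; each is given by counts and its median beside all tested genes. Older symbols matched 17 of the list genes, and 11 found no match. Named genes are BRCA2, EGFR, the 12 highest and 12 lowest called differences with a mean of at least 50 (filled by smallest p), the 5 highest and 5 lowest of the second fit, called list members and for each list the 3 members of mean at least 20 that differed most (printed in part), and the 5 highest and 5 lowest differences between A and B. Other called genes, other list members and the genes in which the library with EGF stood apart were chosen after their values were seen. A table of Ensembl identifiers gave symbols for 92.0% of tested genes. Promoters are those of RefSeq on GRCh38.p14, which is not the authors' build, and no other coordinates are printed. Some genes are not reported here by name, though they count in the totals. Filters, scaling, the variance model, the model and left-out libraries were varied.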

Additional observations from a re-analysis of the deposited data

How the results depend on the processing

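The EGF side holds 1 library, so no value could be had without it, and low values, shrinkage and unknown depth limit small genes. The number of genes that rose (26) and fell (5) varied with the setting. It was 11 and 2 at a mean of at least 50, 13 and 5 with no filter, 31 and 8 after quantile normalisation, 44 and 12 without trend or robust prior, 119 and 96 from the 3 libraries compared alone, 9 and 2 with controls A and B averaged, 1103 and 1315 with 4 classes, and 329 and 250 with the control passage difference taken off. Median centring (34 and 4) and a filter over all libraries (26 and 4) moved neither count beyond 1.5 times. Leaving out 1 library gave 0 to 1106 higher and 0 to 1308 lower genes; the lone library is then assumed to vary like the others. With the replicate letter as a replicate block 0 and 0 genes passed limma (613 and 424 at an unadjusted p below 0.05). The groups compared share 1 letter, and the A minus B deviations of the libraries without EGF and of the controls had a correlation of -0.17 across genes, so the letters are not treated as pairing the libraries.

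For the second estimate (329 and 250) the counts were 206 and 137 at a mean of at least 50, 190 and 160 after quantile normalisation, 309 and 225 without trend or robust prior, and from 0 to 4858 higher and from 0 to 4229 lower with 1 library left out. All 31 called genes were called under 4 classes, in the 3 libraries alone, without control P4 and with passage taken off. These 4 settings are not separate checks. All of them leave the control passage step out of the spread, and the 4 classes and the fit without control P4 share the same residuals. Of 41 list medians 26 kept their sign under every setting run. Some settings change only the spread and leave each difference as it is, so they could not turn a sign. These are the variance prior, the 3 libraries alone, averaged controls, 4 classes and a left-out control. The cause of the shifts in counts and signs was not tested.

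These named genes, none of them called, changed sign. With passage taken off FTL was at 0.67, CDKN1A 0.036, PPARG 0.26, TERF2 0.14, CENPE -0.37, BRCA2 -0.91, TERF1 -0.27, BCL2L1 0.32 and RPS27 0.15. MLANA was at -0.067 after quantile normalisation, -0.025 with the replicate block and -0.018 without library B of the group without EGF. With 1 library left out ATF3 ran from -0.19 to 1.87 and H2AC6 from -0.0048 to 1.02.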

Other observations

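All 13 mitochondrially encoded transcripts were higher without EGF, with a median of 0.62. In all 13 both libraries without EGF exceeded the library with EGF, against 38.0% of all tested genes. In 6 they exceeded all 4 libraries with EGF, against 17.0%. MT-ND6, the gene on the light strand of the mitochondrial genome, was at 16.16 and 16.05 without EGF, 15.17 with EGF and 15.41 to 15.78 in the controls. None passed limma (8 higher at an unadjusted p below 0.05), and the controls differed by a median of 0.39 between passages in the same direction.

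Genes induced through the antioxidant factor NRF2 had a median of -0.41, with 16 of 19 below 0. AKR1C1, an aldo-keto reductase, was at 8.45 and 8.59 without EGF and 10.76 with EGF, and at 10.39, 9.07 and 8.85 in controls P4, A and B. The ferritin chains FTH1 (-1.25) and FTL (-1.28) also lay lower, and for both control P4 was above the library with EGF. SLC7A11, the cystine transporter, lay the other way, at 12.88 and 14.28 against 12.12.

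Targets of TGF-beta were split: TGFBI (1.38) and COL1A1 (1.30) lay higher and ID1 (-1.36) and SMURF2 (-0.86) lower, and the list of 18 had a median of 0.38. Interferon-stimulated genes had a median of 0.20 over 21 members, with 10 above all 4 libraries with EGF (17.0% of all tested genes were) and none past limma (5 higher at an unadjusted p below 0.05).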
